A study of Mus musculus with 6 samples.

Results

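Elastic fibre and microfibril genes encode the extracellular scaffold that gives connective tissue its recoil. Of the 10 genes on this list, 8 were measured in fibroblasts grown from mouse embryos (MEFs), out of 18193 genes measured in all. The members were the probe sets, groups of short oligonucleotides that read 1 transcript, whose platform annotation names one listed gene and no other, which gave 15 probe sets among 45037 tested. The genes measured were Fbn2, Eln, Efemp1, Mfap2, Mfap4, Mfap5, Emilin1 and Fbln1, of which 6 had more than 1 probe set and 2 (Efemp1 and Mfap4) had 1. Fbn1 and Efemp2 were not analysed here.

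The samples were 3 Atxn3-KO MEF samples, from mice that lack the deubiquitinating enzyme ATXN3, and 3 Atxn3-WT MEF samples, each on 1 Affymetrix mouse expression array. No treatment is given for the profiled cells. The methods call the replicates biological without saying whether each came from its own embryo or culture. The spread behind every p-value is therefore that of these 3 and 3 samples, and may be technical. All levels are log2 values normalized by robust multi-array average (RMA), and every change is Atxn3-KO minus Atxn3-WT on that scale, with a standard error (SE) and a p-value from limma adjusted over all 45037 probe sets. A change was called at an adjusted p under 0.05, and the stricter thresholds of the methods were an adjusted p of at most 0.001 with a change of at least 2-fold.

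An elastic fibre has a core of cross-linked elastin on a mantle of microfibrils. Fibrillins polymerize end to end into microfibrils, microfibril-associated glycoproteins decorate them, and fibulins and emilins sit between the mantle and the core and guide the deposition of tropoelastin, which lysyl oxidases then cross-link. Microfibrils also hold latent TGFβ complexes through the latent TGFβ binding proteins. Fibroblasts and smooth muscle cells are the main producers of these proteins.

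The labels and the cell type were checked first. Atxn3 had levels of 3.60, 3.43 and 3.73 on the Atxn3-KO arrays and 6.53, 6.81 and 6.66 on the Atxn3-WT arrays at its brighter probe set. The dimmer Atxn3 probe set had a change of -0.35 (SE 0.14, adjusted p = 0.117 from limma), and its groups overlapped. The fibroblast genes Col1a1, Col1a2, Col3a1 and Vim had mean levels of 13.19, 13.81, 13.61 and 13.78 in Atxn3-KO MEFs and 13.28, 14.07, 13.89 and 13.81 in Atxn3-WT MEFs. Of 10 fibroblast markers, 7 fell and 1 rose, and their log2 levels summed to between 113.17 and 113.30 on the Atxn3-KO arrays and between 118.87 and 119.22 on the Atxn3-WT arrays. Among them, Thy1, a surface glycoprotein of many fibroblasts, fell by 4.21 (SE 0.052, adjusted p = 2.98e-08 from limma). That fall makes up most of the difference between the sums. The other fibroblast markers fell by at most 0.40 (Fap) at their brightest probe sets. Dimmer probe sets of 3 of them fell by more, Col3a1 by 1.02 (SE 0.042), P4ha1 by 0.70 (SE 0.15) and Col1a2 by 0.52 (SE 0.044). That Col3a1 probe set passed the stricter thresholds. The remaining dimmer probe sets of these markers changed by at most 0.35 (Col1a1, a fall). Of 8 smooth muscle markers, 4 rose (Acta2, Tagln, Cnn1 and Lmod1) and 0 fell, and 0 of them were among the dimmest 25% of probe sets throughout. The other 4 (Myh11, Smtn, Des and Myocd) did not pass. Myh11 had means of 4.55 in Atxn3-KO and 4.52 in Atxn3-WT MEFs, close to the 25th percentile (4.36 to 4.39 on the 6 arrays). The log2 levels of the 8 smooth muscle markers summed to between 69.31 and 69.86 on the Atxn3-KO arrays and between 67.26 and 67.89 on the Atxn3-WT arrays. Of 7 epithelial markers, 2 rose (Krt18 and Epcam) and 0 fell. The sums lay between 37.90 and 38.82 on the Atxn3-KO arrays and between 36.35 and 36.80 on the Atxn3-WT arrays. The defining marker Cdh1 stayed under the 25th percentile on the 6 arrays. The Epcam probe set that rose is of a type (suffix x) with probes that may also match other transcripts. The other Epcam probe set did not pass (0.12, adjusted p = 0.213 from limma). Of 8 chondrocyte markers 1 rose, with sums of 44.51 to 44.77 on the Atxn3-KO arrays and 43.67 to 44.56 on the Atxn3-WT arrays and with Matn1, Comp and Hapln1 under the 25th percentile throughout. Of 6 endothelial and 7 macrophage markers 0 passed. Of all genes, 17.1% rose and 14.7% fell, so the counts of the epithelial and chondrocyte lists lay near that background. The 7 of 10 fibroblast markers that fell and the 4 of 8 smooth muscle markers that rose lay above it. Krt18 rose by 1.27 (SE 0.066), with means of 5.63 in Atxn3-KO and 4.36 in Atxn3-WT MEFs, and passed the stricter thresholds. The part of these markers in the changes of the elastic fibre genes was not tested. In bulk RNA, fewer cells of a type and less RNA per cell cannot be told apart.

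Of the 8 measured genes 4 changed, and they did so in both directions. Fbn2 fell 4.34-fold, Efemp1 rose 3.96-fold, Mfap5 2.67-fold and Mfap2 1.36-fold, while Eln, Mfap4, Emilin1 and Fbln1 did not pass the test. Among the 8 genes, each taken at its brightest probe set, 3 rose and 1 fell at an adjusted p under 0.05 from limma, against 31.8% of all genes that passed in either direction. At the stricter thresholds 2 of the 8 rose and 1 fell, against 1.28% and 0.649% of all genes (1.93% in either direction). The 3 Atxn3-KO values lay wholly above or below the 3 Atxn3-WT values for 4 of the 8, against 49.2% of all genes. Among the 15 probe sets, 6 passed an adjusted p of 0.05, against 26.0% of all probe sets, with 4 higher (12.5% of all) and 2 lower (13.5% of all). The stricter thresholds were passed by 4, against 1.31% of all, with 2 higher (0.795%) and 2 lower (0.515%). The values of the genotypes did not overlap for 8 of the 15, against 41.1% of all probe sets. The median change of the 8 genes was 0.13, and that of all genes was 0.0021. The median absolute change was 0.29 for the 8 genes and 0.11 for all genes.

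**Figure D1:**
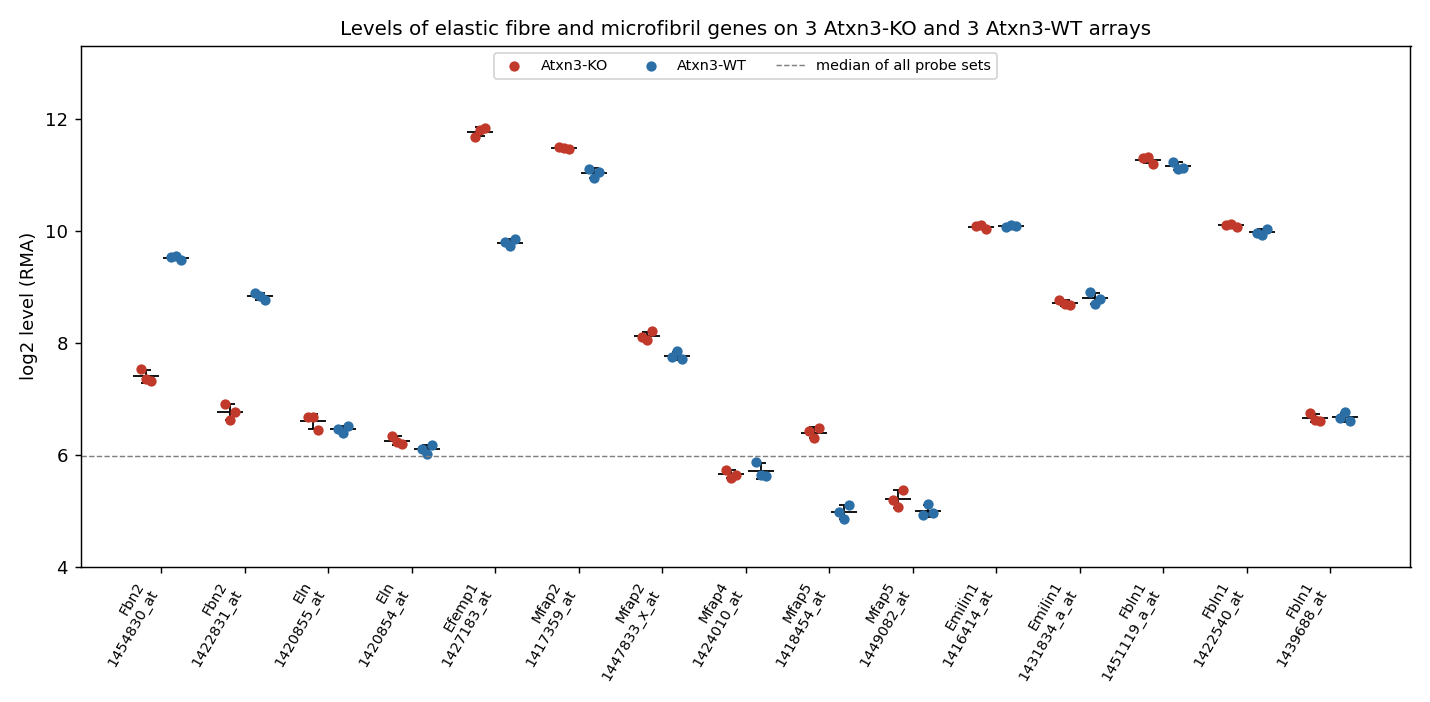
Log2 level of each elastic fibre and microfibril probe set (vertical axis) on the 3 Atxn3-KO arrays (red, left of each pair) and the 3 Atxn3-WT arrays (blue, right), with the mean and SD in black and the median of all probe sets dashed. The Fbn2 arrays separate downwards (7.31 to 7.53 in Atxn3-KO against 9.47 to 9.54 in Atxn3-WT MEFs at the brighter probe set) and the Efemp1 arrays upwards (11.68 to 11.83 against 9.72 to 9.84).

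Of the 2 fibrillins on the list, only Fbn2 was measured, and it fell. Fbn2 encodes fibrillin-2, the fibrillin most prominent in embryonic and fetal microfibrils. At its brighter probe set the level was 7.53, 7.35 and 7.31 on the Atxn3-KO arrays and 9.52, 9.54 and 9.47 on the Atxn3-WT arrays. The groups did not overlap, and the highest Atxn3-KO array lay far below the lowest Atxn3-WT array. The mean was 7.40 ± 0.12 in Atxn3-KO MEFs and 9.51 ± 0.037 in Atxn3-WT MEFs (SD, n = 3 arrays each), a change of -2.12 (SE 0.065, adjusted p = 2.08e-06 from limma) that equals a level 4.34-fold lower in Atxn3-KO MEFs (95% interval 3.90 to 4.82). The second Fbn2 probe set had 6.90, 6.62 and 6.77 on the Atxn3-KO arrays and 8.89, 8.84 and 8.76 on the Atxn3-WT arrays. Its change was -2.07 (SE 0.078, adjusted p = 4.76e-06), so both probe sets fell by nearly equal amounts, again without overlap of the groups.

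Of the 3 fibulin genes on the list, Efemp1 rose, Fbln1 did not pass and Efemp2 was not analysed. Efemp1 encodes fibulin-3, a short fibulin that binds tropoelastin. Its level was 11.68, 11.81 and 11.83 on the Atxn3-KO arrays and 9.79, 9.72 and 9.84 on the Atxn3-WT arrays. All Atxn3-KO arrays lay above all Atxn3-WT arrays. The mean was 11.77 ± 0.082 in Atxn3-KO MEFs and 9.79 ± 0.060 in Atxn3-WT MEFs (SD, n = 3 arrays each), a rise of 1.98 (SE 0.058, adjusted p = 1.70e-06 from limma) or 3.96-fold (95% interval 3.60 to 4.35). Fbln1 encodes fibulin-1, a larger family member found in elastic fibre cores and basement membranes. At its brightest probe set Fbln1 had 11.30, 11.32 and 11.20 on the Atxn3-KO arrays and 11.23, 11.11 and 11.13 on the Atxn3-WT arrays, and the groups overlapped. The change was 0.12 (SE 0.056, adjusted p = 0.186), or 1.08-fold with a 95% interval of 0.989 to 1.19. With an intensity trend and a robust prior for the variance, the same Fbln1 change passed (adjusted p = 0.0438). A second Fbln1 probe set had a change of 0.12 (SE 0.046, adjusted p = 0.10) with groups that did not overlap, and the dimmest one had -0.014 (SE 0.063).

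The microfibril-associated proteins moved unequally. Mfap2 and Mfap5 encode the paralogous glycoproteins MAGP-1 and MAGP-2, small proteins that bind fibrillins. Mfap2 had 11.49, 11.48 and 11.46 on the Atxn3-KO arrays and 11.11, 10.94 and 11.05 on the Atxn3-WT arrays. The groups did not overlap, and the Atxn3-KO arrays lay closer together than the Atxn3-WT arrays. The change was 0.44 (SE 0.054, adjusted p = 0.00101 from limma), or 1.36-fold (95% interval 1.25 to 1.48), which is under the 2-fold threshold. A second Mfap2 probe set, of a type (suffix x) with probes that may also match other transcripts, rose by 0.34 (SE 0.062, adjusted p = 0.00567).

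Mfap5 differed between its probe sets. The brighter one had 6.42, 6.29 and 6.47 on the Atxn3-KO arrays and 4.97, 4.85 and 5.10 on the Atxn3-WT arrays. Here the groups lay well apart, and the Atxn3-WT arrays lay between the 25th percentile (4.36 to 4.39 on the 6 arrays) and the median (5.97 or above) of all probe sets. The rise was 1.42 (SE 0.077, adjusted p = 2.46e-05 from limma), or 2.67-fold (95% interval 2.36 to 3.03). The dimmer Mfap5 probe set had 5.19, 5.06 and 5.37 on the Atxn3-KO arrays and 4.92, 5.11 and 4.95 on the Atxn3-WT arrays, and these values overlapped. Its change was 0.21 (SE 0.090, adjusted p = 0.136), with a 95% interval of 0.00041 to 0.42 that does not reach the interval of the brighter one (1.24 to 1.60). With both probe sets averaged the Mfap5 change was 0.82 (adjusted p = 6.03e-05). The size of the Mfap5 change therefore depends on the probe set.

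The changes of Mfap5 and Mfap2 were set against each other within each array. The log2 difference, Mfap5 minus Mfap2, was -5.07, -5.19 and -4.99 on the Atxn3-KO arrays and -6.14, -6.09 and -5.95 on the Atxn3-WT arrays. At the brightest probe sets Mfap5 rose by 0.98 more than Mfap2, and the groups did not overlap. The exact permutation test, two-sided, gave p = 0.10 for the only paralog pair with both members measured, which is the smallest p that 3 arrays against 3 can give. With all probe sets of each gene averaged the difference was 0.42. At the dimmer Mfap5 probe set the change (0.21) was smaller than that of Mfap2 at either of its probe sets (0.44 and 0.34), so the direction of the difference turns with the probe set.

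Mfap4, which encodes a fibrinogen-related glycoprotein that binds fibrillin and tropoelastin, had 5.72, 5.58 and 5.64 on the Atxn3-KO arrays and 5.87, 5.63 and 5.62 on the Atxn3-WT arrays. These values overlapped and all lay below the median of all probe sets. The change was -0.058 (SE 0.077, adjusted p = 0.645 from limma), or 0.960-fold with a 95% interval of 0.847 to 1.09. A change of 2-fold in either direction lies outside that interval.

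The core protein and the emilin did not pass. Eln encodes tropoelastin, the monomer of the elastin core. At the brighter probe set it had 6.66, 6.67 and 6.44 on the Atxn3-KO arrays and 6.47, 6.38 and 6.51 on the Atxn3-WT arrays. Atxn3-KO replicate 3 lay within the range of the Atxn3-WT arrays, and the other Atxn3-KO arrays lay above it. The change was 0.14 (SE 0.074, adjusted p = 0.218 from limma), or 1.10-fold (95% interval 0.978 to 1.24), and without Atxn3-KO replicate 3 it was 0.22 and passed (adjusted p = 0.0382). The other Eln probe set had a change of 0.15 (SE 0.062, adjusted p = 0.129), and its groups lay apart by a small margin, with 6.19 as the lowest Atxn3-KO value and 6.18 as the highest Atxn3-WT value.

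Emilin1 encodes a glycoprotein at the interface of elastin and microfibrils. It had 10.08, 10.11 and 10.02 on the Atxn3-KO arrays and 10.07, 10.09 and 10.09 on the Atxn3-WT arrays at the brighter probe set. The 6 arrays overlapped and spanned a narrow range. The change was -0.015 (SE 0.043, adjusted p = 0.844 from limma), or 0.990-fold with a 95% interval of 0.922 to 1.06. The other Emilin1 probe set had -0.082 (SE 0.062, adjusted p = 0.400).

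**Figure D2:**
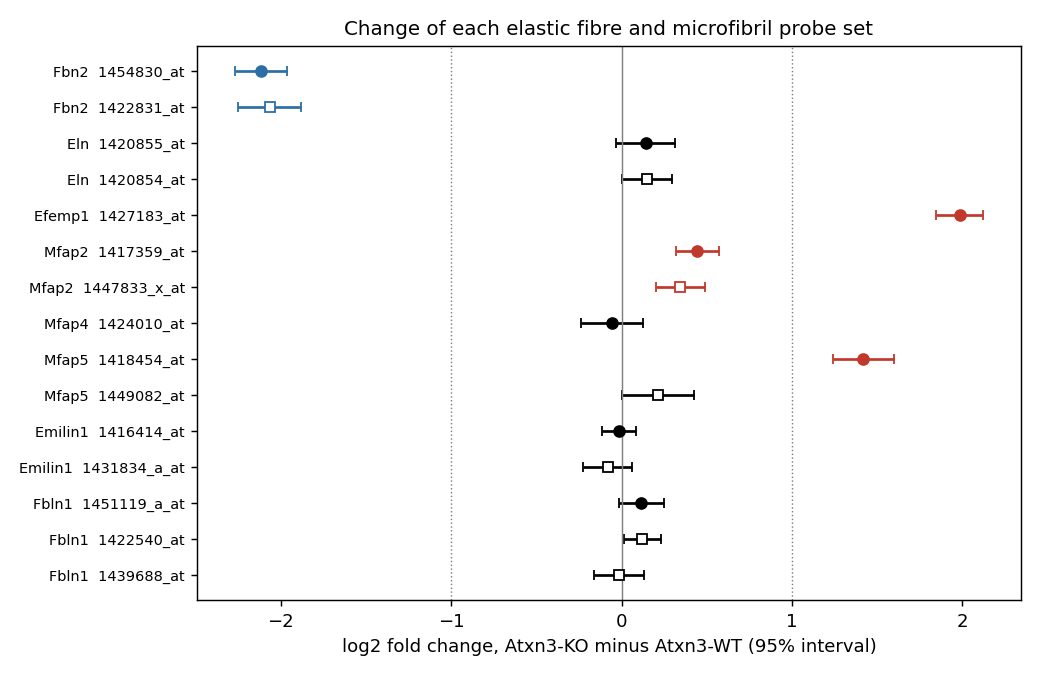
Log2 fold change of each probe set, Atxn3-KO minus Atxn3-WT (horizontal axis), with 95% intervals, filled circles for the brightest probe set of a gene and open squares for the others. Red and blue mark rises and falls at an adjusted p under 0.05, black marks the rest, and dotted lines mark a 2-fold change, which the intervals of Fbn2, Efemp1 and the brighter Mfap5 probe set lie beyond.

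Promoter sequence is shown for 4 of the 8 measured genes, to set Efemp1 and Mfap2, which rose, beside Emilin1 and Fbln1, which did not pass. No sequence was available for Eln, Mfap4 and Mfap5. The promoter of Fbn2, the only member that fell, is not reported here. Each sequence holds the 250 bases before the annotated start site, from the RefSeq table of GRCm38.p6, all on the plus strand, at chr11:28852955-28853204 for Efemp1, chr4:141010174-141010423 for Mfap2, chr5:30913536-30913785 for Emilin1 and chr15:85205699-85205948 for Fbln1. For Mfap2 and Fbln1, which have 2 annotated start sites each, the first along the chromosome is shown. Capitals mark matches, on either strand, to the TATA box (TATAAA), the CCAAT box (CCAAT), the GC box (GGGCGG), the AP-1 element (TGACTCA), a SMAD-binding element (CAGACA) and the E-box (CACGTG).
Efemp1: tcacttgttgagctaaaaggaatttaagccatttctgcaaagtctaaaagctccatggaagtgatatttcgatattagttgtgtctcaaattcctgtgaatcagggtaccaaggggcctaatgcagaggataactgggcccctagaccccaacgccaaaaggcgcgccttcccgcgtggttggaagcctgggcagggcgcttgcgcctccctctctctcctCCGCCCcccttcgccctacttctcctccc
Mfap2: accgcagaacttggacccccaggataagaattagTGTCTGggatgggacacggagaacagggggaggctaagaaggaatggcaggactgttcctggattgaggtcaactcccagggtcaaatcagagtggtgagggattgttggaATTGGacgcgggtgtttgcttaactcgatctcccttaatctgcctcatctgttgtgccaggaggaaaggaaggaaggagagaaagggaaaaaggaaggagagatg
Emilin1: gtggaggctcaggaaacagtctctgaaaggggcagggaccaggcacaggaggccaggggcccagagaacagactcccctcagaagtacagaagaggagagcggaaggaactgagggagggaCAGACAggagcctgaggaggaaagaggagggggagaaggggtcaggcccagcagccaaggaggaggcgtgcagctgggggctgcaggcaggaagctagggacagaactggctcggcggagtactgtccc
Fbln1: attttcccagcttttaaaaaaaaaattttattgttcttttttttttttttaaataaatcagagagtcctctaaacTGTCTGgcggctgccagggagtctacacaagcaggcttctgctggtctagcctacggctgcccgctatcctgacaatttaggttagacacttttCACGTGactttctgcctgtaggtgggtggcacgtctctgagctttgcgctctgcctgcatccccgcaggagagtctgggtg

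In the windows shown, Efemp1 and Mfap2 shared none of these motifs, but the window at the other start site of Mfap2, not shown, held 2 GC boxes. The Efemp1 window held 1 GC box, a motif found in 32.7% of the 32851 promoter windows of this length. The Mfap2 window held 1 CCAAT box (33.8% of windows) and 1 SMAD-binding element (17.1% of windows), and the windows of Emilin1 and Fbln1 held 1 SMAD-binding element each. The Fbln1 window also held 1 E-box (6.02% of windows), and the window at its other start site, which overlaps the one shown, held 1 GC box, 1 SMAD-binding element and 1 E-box. A TATA box (12.4% of windows) or an AP-1 element (4.46% of windows) was in none of the 4, nor in the other windows of Mfap2 and Fbln1. The GC content was 53.6% for Efemp1, 51.2% for Mfap2, 63.2% for Emilin1 and 46.4% for Fbln1, with a median of 52.4% over all windows. A match describes the letters only.

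The genes beside the members on the chromosome were compared with them. Among the 3 protein-coding genes on each side of every member in the RefSeq gene order, 43 of 48 were measured, and 14 rose and 6 fell at an adjusted p under 0.05 from limma (background 17.1% and 14.7% of all genes). Beside Fbn2, Slc12a2, a sodium-potassium-chloride cotransporter, fell by 0.24 (SE 0.047), and Isoc1 had -0.0048 (SE 0.042). Beside Efemp1, which rose, 4 of 6 neighbours fell, among them Pnpt1, a mitochondrial RNA-processing enzyme, by 0.18 (SE 0.042). Beside Mfap2, 4 of 6 neighbours rose, with Necap2, an endocytic adaptor, at 0.42 (SE 0.051), close to the 0.44 of Mfap2 itself. Of the 5 neighbours of Mfap5 that were measured, 3 rose, the highest being Apobec1, a cytidine deaminase, at 0.33 (SE 0.065). Neighbours of members that did not pass changed as well. Beside Emilin1, 3 of 6 rose, with Cgref1 at 0.58 (SE 0.057). Beside Eln, Mettl27 rose by 0.53 (SE 0.055) and Lat2 fell by 0.49 (SE 0.046), and beside Fbln1, Fam118a rose by 0.51 (SE 0.051).

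**Figure D3:**
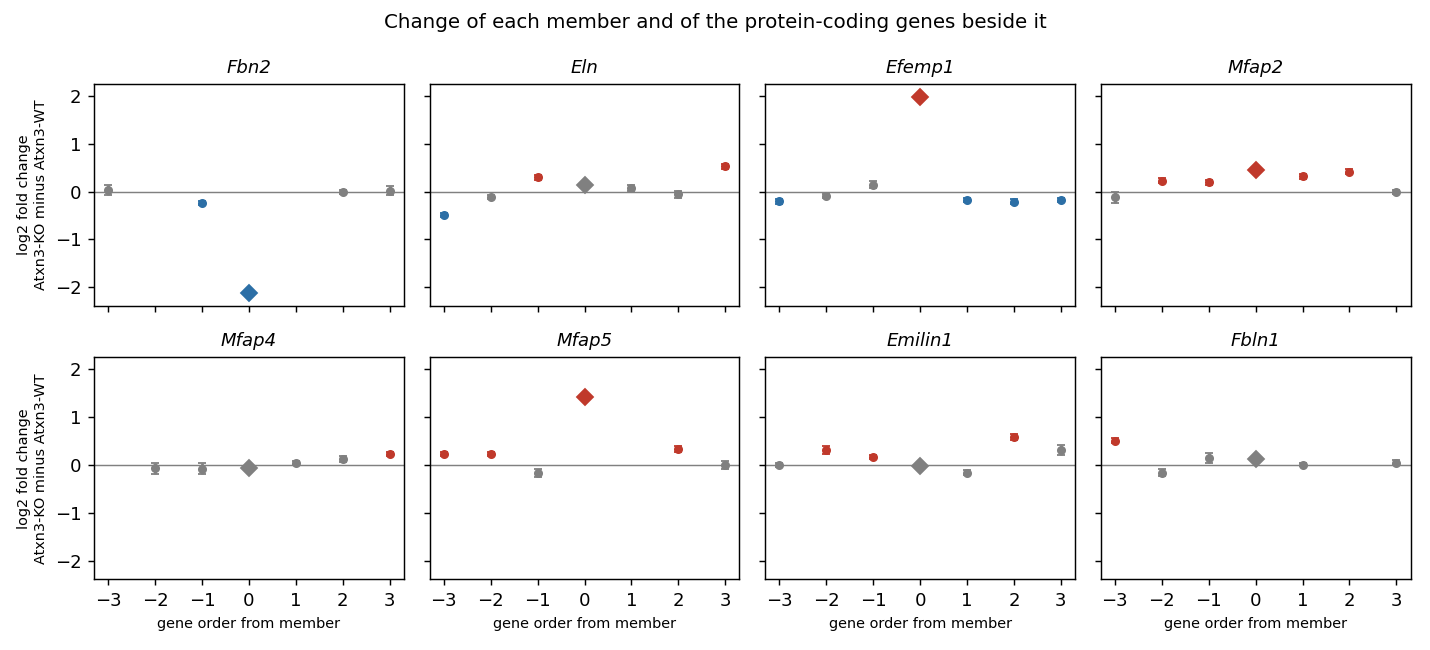
Log2 fold change, Atxn3-KO minus Atxn3-WT (vertical axis), of each member (diamond at 0) and of the 3 protein-coding genes on either side in chromosome order (circles), with standard errors as bars. Red and blue mark rises and falls at an adjusted p under 0.05 and grey the rest. The changes of Fbn2 (-2.12), Efemp1 (1.98) and Mfap5 (1.42) stand far from those of their measured neighbours.

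The list was then set beside 58 measured genes from 9 further lists of elastic fibre assembly. Of these, 26 rose and 5 fell at an adjusted p under 0.05 from limma, which is 44.8% and 8.62% of them, against 17.1% and 14.7% of all genes. Their median change was 0.13, against 0.0021 for all genes. The lists were chosen with earlier results of these data known, and the background takes in dim genes as well. The shares are therefore descriptive, and an excess over the background was not tested. The count of genes that fell was 3 without Atxn3-WT replicate 1, Atxn3-WT replicate 2 or Atxn3-KO replicate 2, and 2 without Atxn3-WT replicate 3.

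Of 4 lysyl oxidases, the enzymes that cross-link elastin and collagen, 3 rose and 1 fell. Loxl3 rose by 0.81 (SE 0.045), with a mean level of 10.46 ± 0.046 in Atxn3-KO MEFs and 9.65 ± 0.026 in Atxn3-WT MEFs (SD, n = 3 arrays each). Lox had 0.71 (SE 0.047) and Loxl1, which is needed for elastic fibre upkeep, 0.62 (SE 0.040). The fall of Loxl4 (-0.23, SE 0.051) did not pass without Atxn3-WT replicate 1 or Atxn3-WT replicate 3, which left 0 lysyl oxidases lower. Of 4 other fibulin family genes, 3 rose. Fbln2, which encodes fibulin-2, rose by 0.86 (SE 0.042), with means of 13.01 ± 0.030 in Atxn3-KO MEFs and 12.15 ± 0.024 in Atxn3-WT MEFs (SD, n = 3 arrays each). Hmcn1, a hemicentin, and Fbln7 had 0.30 (adjusted p = 0.0496) and 0.28 (adjusted p = 0.0436), and the count of fibulins that rose was 1 without Atxn3-WT replicate 1, Atxn3-WT replicate 3 or Atxn3-KO replicate 3, and also 1 with the replicate number as a block.

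The latent TGFβ binding proteins, relatives of the fibrillins, held members that rose and 1 that fell. Of 4 measured, 3 rose and 1 fell. Ltbp2, which binds fibrillin but not latent TGFβ, had a mean level of 9.25 ± 0.072 in Atxn3-KO MEFs and 7.85 ± 0.10 in Atxn3-WT MEFs (SD, n = 3 arrays each), a rise of 1.40 (SE 0.065, adjusted p = 1.20e-05 from limma). Ltbp3 rose by 0.62 (SE 0.044). Ltbp4, which works with fibulins in elastic fibre assembly, had 7.35 ± 0.097 in Atxn3-KO MEFs and 8.37 ± 0.10 in Atxn3-WT MEFs, a fall of 1.02 (log2 fold change -1.02, SE 0.072). Among 7 ADAMTS and ADAMTS-like genes tied to microfibrils, 2 rose and 5 did not pass. Adamtsl3 rose by 1.40 (SE 0.066) and Adamts10, a fibrillin-binding protease, by 0.46 (SE 0.048). Of 5 other emilin and multimerin genes, 1 rose, Emilin2 (0.33, SE 0.049).

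Genes for the handling and binding of the fibre proteins changed by at most 0.65 on the log2 scale. Of 7 genes for tropoelastin and profibrillin handling, 3 rose and 0 fell. Slc2a10, a transporter whose loss causes arterial tortuosity in humans, had 0.55 (SE 0.048), and Glb1, whose spliced product is the elastin-binding protein, had 0.29 (SE 0.043). Pcsk6, a proprotein convertase, had 0.25 (adjusted p = 0.0446) and passed in only 1 of the 6 fits that leave out an array, the one without Atxn3-KO replicate 3. Of 9 integrin subunits, 2 rose and 1 fell, with Itga8 at 0.65 (SE 0.064) and Itgb5 at 0.19 (SE 0.042). Itga8 was dim, with means of 5.04 in Atxn3-KO and 4.39 in Atxn3-WT MEFs, the latter near the 25th percentile. The other Itga8 probe set had a change of 0.065 (SE 0.077) and lay under the 25th percentile on all 6 arrays. Itgb8, which fell, was dim as well, with means of 4.44 in Atxn3-KO and 4.88 in Atxn3-WT MEFs. Itgb5 did not pass without Atxn3-WT replicate 1 (adjusted p = 0.0507). Itgb8 had -0.44 (adjusted p = 0.0268) and did not pass without Atxn3-WT replicate 2 (0.0814), Atxn3-WT replicate 3 (0.0842), Atxn3-KO replicate 2 (0.0670) or Atxn3-KO replicate 3 (0.0813).

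Of 9 elastin-degrading proteases, 3 rose and 2 fell. Mmp2, a gelatinase that also cleaves elastin, rose by 1.20 (SE 0.063), and Ctsl, a lysosomal cathepsin, by 0.31 (SE 0.040). Ctsk, a strongly elastolytic cathepsin, fell by 0.35 (SE 0.049). The count of proteases that fell was 1 in every fit that left out an array, except the one without Atxn3-KO replicate 3. Mmp12 and Ctss, both elastases of macrophages, were under the 25th percentile on all 6 arrays. Of 9 matrix partners at the fibre surface, 6 rose and 0 fell. Dcn, the proteoglycan decorin, rose by 1.91 (SE 0.073), Thbs2 by 0.73 (SE 0.047) and Thbs1 by 0.46 (SE 0.043), both thrombospondins. With all probe sets of a gene averaged, the changes of Dcn (1.06), Fbln2 (0.45), Ltbp3 (0.39), Adamts10 (0.24), Itga8 (0.36) and Ctsl (0.18) were smaller by more than 1.5 times. For Dcn, Fbln2 and Itga8 the other probe set in that average was under the 25th percentile on all 6 arrays. Its means in Atxn3-KO and Atxn3-WT MEFs were 4.29 and 4.07 for Dcn and 3.38 and 3.33 for Fbln2.

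**Figure D4:**
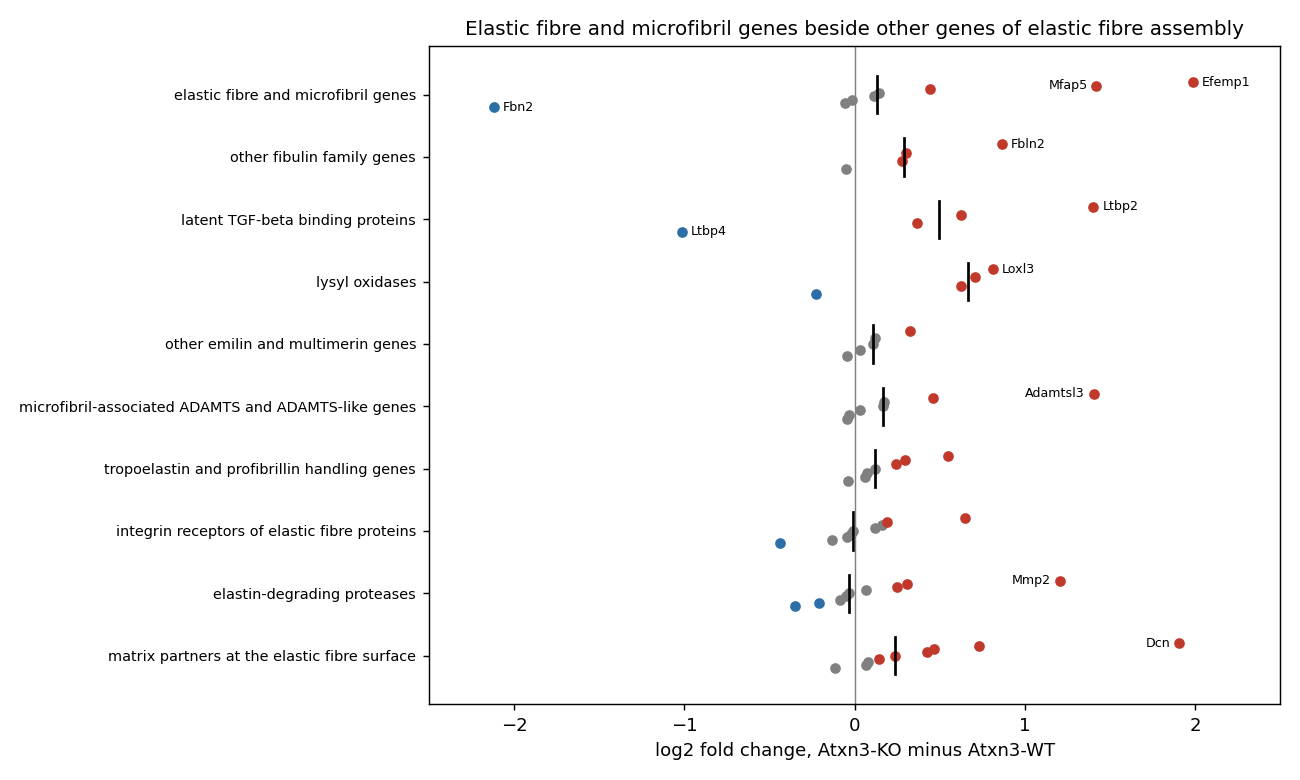
Log2 fold change, Atxn3-KO minus Atxn3-WT (horizontal axis), of each gene at its brightest probe set, for the elastic fibre and microfibril genes (top row) and 9 further lists, with the median of each list as a black bar. Red and blue mark rises and falls at an adjusted p under 0.05 and grey the rest, and Fbn2 (-2.12) has the lowest and Efemp1 (1.98) the highest change in the plot.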

How the data were processed

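RNA from 3 Atxn3-KO and 3 Atxn3-WT MEF samples, grouped by the sample titles, had been hybridized to Affymetrix mouse expression arrays. The authors deposited log2 values made by RMA, a method that removes background, gives all arrays 1 distribution by quantile normalization and combines the probes into 1 value per probe set. Any change shared by every gene is lost in that step. RMA and limma are named in the submitters' processing notes, and their versions are not given in the sources used here.

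Of 45101 probe sets, 64 controls were left out. Limma 3.58.1 in R 4.3.3 fitted Atxn3-KO minus Atxn3-WT with lmFit and eBayes to 45037 probe sets, with equal array weights, because the methods name a weighted linear model without its weights, and no filter on low values. P-values were adjusted by Benjamini-Hochberg. Gene symbols came from the platform annotation, in which 34945 probe sets name 1 gene, and each gene was represented by its brightest probe set over all 6 arrays. The exact permutation test used scipy 1.17.1. The fit was tested on simulated data.

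Every probe set of the listed genes is described, and of each further list up to 3 genes with the largest change past the threshold, or the brightest gene where none passed. Loxl4, the single markers, Mmp12, Ctss and the neighbouring genes were named after their values were seen. The members and lists were chosen with earlier results of these data known. Within a genotype, arrays correlated at 0.998 to 0.999, and at most 0.386% of values were exactly equal between 2 arrays. The number of arrays limits the precision. Alternatives were array weights, a replicate block, quantile normalization, median centring, a filter on dim probe sets, another variance model, limma's treat, averaged probe sets and leaving out each array.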

Additional observations from a re-analysis of the deposited data

How the results depend on the processing

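The changes of Fbn2, Efemp1, Mfap2 and Mfap5 kept their direction and stayed past an adjusted p of 0.05 in every alternative fit that tests for any change and gave a value, in ranges of -2.18 to -2.07, 1.95 to 2.03, 0.39 to 0.48 and 0.82 to 1.48. With probe sets under the median level left out, Mfap4 and Mfap5 gave no value, 3 rather than 4 member probe sets passed the 2-fold thresholds, and 3 rather than 5 further genes of elastic fibre assembly fell, since dim probe sets are no longer tested. Against a 2-fold change by limma's treat, 3 member probe sets passed. With an intensity trend and a robust prior, 8 rather than 6 member probe sets passed an adjusted p of 0.05, among them the brightest of Fbln1 (0.12). Leaving out each array in turn gave 6 to 7 member probe sets, 21 to 23 further genes that rose and 2 to 4 that fell. It gave changes of 0.10 to 0.22 for Eln, -0.10 to 0.022 for Mfap4, -0.033 to 0.0079 for Emilin1 and -0.059 to 0.032 for the dimmest Fbln1 probe set. Their signs turned without Atxn3-WT replicate 1 for Mfap4 (0.022), without Atxn3-KO replicate 3 for Emilin1 (0.0079), and for the Fbln1 probe set without Atxn3-WT replicate 2 (0.032), Atxn3-KO replicate 2 (0.0041) or Atxn3-KO replicate 3 (0.013). The cause was not tested. Quantile normalization and median centring moved the median change of all probe sets by 0.0024 and 0.013.

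The genotypes share replicate numbers, but nothing says that a number marks a shared culture. Deviations from the group means correlated at 0.021, -0.023 and -0.036 for numbers 1, 2 and 3, and only the 2 arrays of number 1 correlated best with their own number, so the numbers were not taken as pairs. With the replicate block 9801 rather than 11696 probe sets passed an adjusted p of 0.05, while the member counts stayed at 6 and 4. Of the further genes, 22 rose and 4 fell with the block. The calls lost included those of Hmcn1 (adjusted p = 0.0916), Fbln7 (0.0862), Pcsk6 (0.0506) and Itgb8 (0.0546), so that 1 rather than 3 other fibulin family genes rose.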
